A study of Mus musculus with 12 samples.

Results

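The genes described here are 10 genes of glucose breakdown and the hypoxia response, Hif1a, Slc2a1, Hk1, Hk2, Hk3, Pfkfb3, Pfkp, Pgk1, Pkm and Ldha, out of 23238 gene symbols counted by RNA sequencing of mouse lung. They were chosen by symbol, all 10 were present in every table, and all 10 passed the filter on low counts. The 12 libraries fell into 4 groups of 3, namely lung without irradiation (NoIR) and lung taken 8 d, 11 d and 14 d after irradiation (IR_8d, IR_11d and IR_14d). Per the series' design text, irradiated lung was sampled within the irradiated area only. The sources used here give no dose, strain, age or sex, nor the part of the lung that served as control. Replicates are numbered in the labels without a statement that each is a separate animal, so the p-values cover the spread among these libraries, which could be technical.

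Glycolysis splits glucose into pyruvate and yields ATP without oxygen. Slc2a1 encodes the glucose transporter GLUT1, the hexokinases Hk1, Hk2 and Hk3 trap glucose as glucose 6-phosphate, and Pfkp is the platelet-type subunit of phosphofructokinase, the committed step. Pfkfb3 makes fructose 2,6-bisphosphate, the strongest activator of phosphofructokinase. Pgk1 and Pkm carry out the ATP-yielding steps, and Ldha turns pyruvate into lactate. Hif1a encodes the oxygen-regulated subunit of hypoxia-inducible factor (HIF), which binds hypoxia response elements, short DNA sites with the core ACGTG or GCGTG, and induces genes of glycolysis. HIF-1α is controlled mainly through the breakdown of its protein, which mRNA counts do not measure. Macrophages and neutrophils depend strongly on glycolysis when activated, and Hk3 is expressed mostly in myeloid cells.

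Because HIF acts through these cores, the RefSeq promoter windows of the genes (build GRCm38.p6, 250 bases before to 50 after each annotated start) were searched for ACGTG and GCGTG on both strands. The reverse complements are CACGT and CACGC, and matches may overlap. All 10 genes were matched to 14 windows, of which 12 held at least 1 core, against 43.8% of 32851 windows of the same length. The core ACGTG was in 10 of the 14 windows, against 19.6% of all windows, and GCGTG in 6 of 14, against 32.4%. The 10 genes were picked as genes of glycolysis and the hypoxia response, so these counts are no test of control by HIF. The windows compared were not matched for base content. A match is a description of the letters and not a bound site. One stretch is shown for each of 7 genes, written 5′ to 3′ on the gene's strand with the core in capitals. The first 4 genes are among those called higher after irradiation at 1 time or more, Hk2 at 14 d only. Hk3 is shown because its change was the largest of the 10, Pfkfb3 because it was lower, and Pfkp because its window held only GCGTG cores.
Ldha: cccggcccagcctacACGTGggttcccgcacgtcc
Pgk1: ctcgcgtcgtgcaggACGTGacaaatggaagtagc
Slc2a1: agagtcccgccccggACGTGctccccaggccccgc
Hk2: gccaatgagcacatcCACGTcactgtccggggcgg
Hk3: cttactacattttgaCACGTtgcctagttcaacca
Pfkfb3: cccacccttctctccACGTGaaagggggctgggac
Pfkp: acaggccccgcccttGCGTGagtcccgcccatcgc

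The Ldha stretch is at chr7:46845742-46845776 (plus strand), with the core 47 bases before a start that lies inside the gene model of GENCODE M21, in an intron. The Pgk1 stretch is at chrX:106186935-106186969 (plus strand), outside the gene, with the core 150 bases before the start. Slc2a1 has its stretch at chr4:119108694-119108728 (plus strand), which overlaps the first exon in part, with the core 36 bases before the start. For Hk2 (chr6:82774487-82774521) and Hk3 (chr13:55021522-55021556), both on the minus strand and outside the gene, the core lies on the opposite strand, 52 and 156 bases before the start. The Pfkfb3 stretch (chr2:11502123-11502157, minus strand) is 52 bases before the inner of 2 annotated starts, in an intron, and that of Pfkp (chr13:6648820-6648854, minus strand) is 68 bases before the start, outside the gene. Ldha held the most cores, 7 in the window of this start and 2 in that of another start. The windows of Hk1 held 0 and 5, those of Pkm 0 and 2, those of Pfkfb3 1 and 4, and those of the other genes between 1 and 4. The palindrome CACGTG counts as 2 cores, 1 on each strand, as in the windows of Ldha and Pfkfb3 shown here. How the numbers of cores relate to the changes in counts was not tested.

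Library totals ran from 19624554 to 27765751 counts. Rn45s, a ribosomal RNA precursor, took 1.71% to 6.27% of them and haemoglobin genes 0.253% to 1.79%. The labelled tissue was checked against 7 markers of alveolar type 2 cells, which summed to between 16363 and 33629 CPM with none of them at 0 in any library. Levels are given as CPM, counts scaled to a common library size. Differences are log2 changes from edgeR's quasi-likelihood test with the standard error (SE) in brackets, and a gene was called where its p, adjusted by Benjamini-Hochberg over all 16484 genes tested, was below 0.05. Replicate 1 of the 11 d group had the highest level of its group for 7 of the 10 genes, replicate 1 of the 14 d group for 8, and replicate 1 of the 8 d group for 7. Without 11 d replicate 1 the 11 d changes against unirradiated lung were 0.96 for Hif1a, 3.37 for Hk3, 0.82 for Ldha and 1.01 for Pkm.

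Of the 10 genes 5 were called higher and 1 lower at 8 d, where 13% of all genes tested were called higher and 10.6% lower. At 11 d the numbers were 7 higher and 1 lower, against 19.4% and 17.8% of all genes, and at 14 d 7 and 1, against 20% and 18.9%. The median log2 change of the 10 genes was 0.41 at 8 d, 0.83 at 11 d and 0.64 at 14 d, while that of all genes tested was 0.01, -0.01 and 0.01. Hif1a, Slc2a1, Hk3, Pkm and Ldha were called higher at all 3 times and Pfkfb3 lower at all 3. Pgk1 was called higher at 11 d and 14 d, Pfkp at 11 d, Hk2 at 14 d, and Hk1 was not called. Libraries did not overlap those of unirradiated lung for 7 of the 10 genes at 8 d, all 10 at 11 d and 9 at 14 d, against 38.3%, 54.9% and 50.8% of all genes. All 3 comparisons share the same unirradiated libraries. These are bulk samples, so fewer cells of a type and less RNA per cell cannot be told apart.

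**Figure D1:**
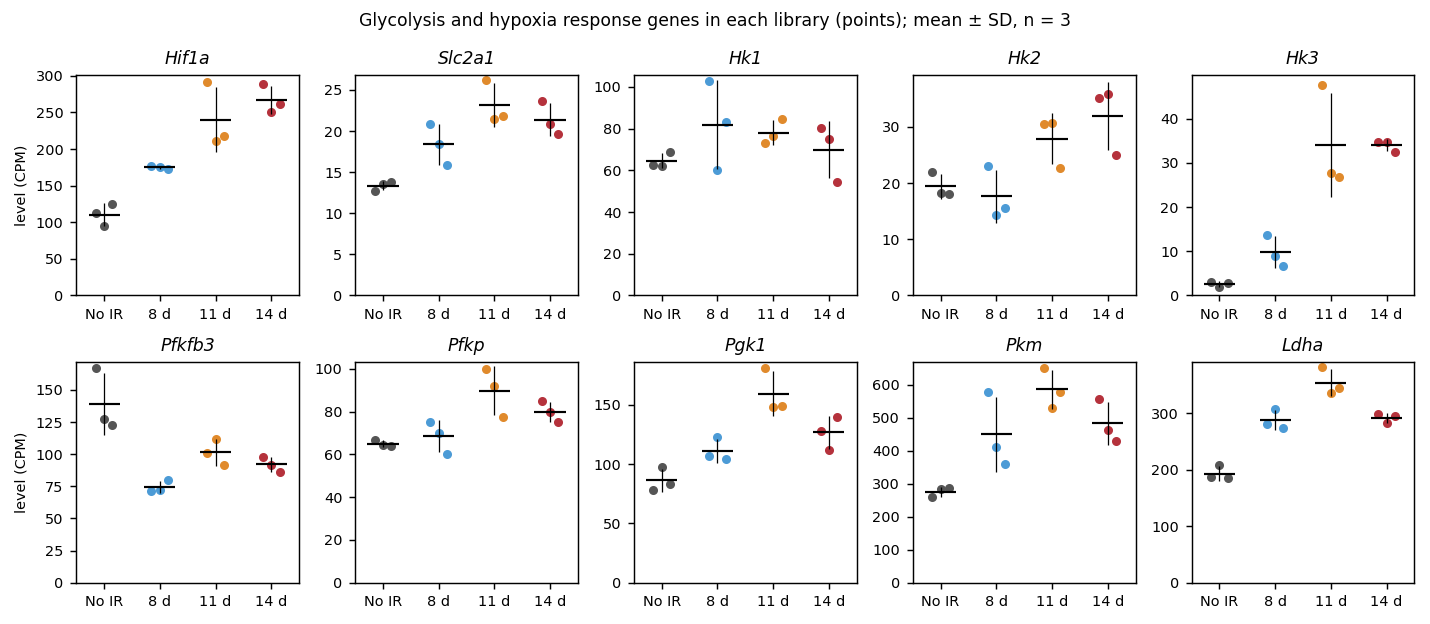
Level in CPM (y axis, linear, from 0) of each of the 10 genes in each of the 12 libraries (points), by group (x axis), with the mean (horizontal bar) and SD (vertical line) over 3 libraries. Hk3 goes from 1.92 to 3.05 CPM without irradiation to between 26.9 and 47.7 CPM at 11 d, and Pfkfb3 is the gene whose unirradiated libraries lie above all irradiated ones.

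Hif1a (mm10 chromosome 12, 73901375 to 73947530, plus strand) had levels of 112, 94.7 and 125 CPM without irradiation. At 8 d it had 177, 175 and 173 CPM, at 11 d 292, 211 and 218, and at 14 d 289, 251 and 261. Every irradiated library lay above every unirradiated one, and the 8 d libraries lay below all those of 11 d and 14 d. The mean went from 110 ± 15.2 CPM (SD, n = 3) to 175 ± 1.89, 240 ± 44.6 and 267 ± 19.8 at the 3 times. The log2 changes were thus 0.66 (SE 0.14, adjusted p = 0.0042), 1.12 (SE 0.14, adjusted p = 4.2e-05) and, for a 2.42-fold higher level, 1.27 (SE 0.15, adjusted p = 9.0e-06). Exons of the antisense gene Gm15283 cover 5.6% of the exon bases of Hif1a, and reads from that stretch are uncertain because the strand setting of the counting is not given.

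Among the other HIF subunits and regulators some were called higher and some lower. Of the 9 other genes of the HIF pathway 2 fell at 8 d. At 11 d 2 rose and 4 fell, at 14 d 2 rose and 3 fell, and the medians were -0.19, -0.12 and -0.20. Of all genes tested, 13%, 19.4% and 20% were called higher at the 3 times, and 10.6%, 17.8% and 18.9% lower. Epas1, which encodes the endothelium-rich subunit HIF-2α, fell from 5469 ± 623 CPM to 1584 ± 435, 1315 ± 285 and 726 ± 124 at the 3 times. By 14 d the log2 change was -2.91 (SE 0.24, adjusted p = 7.0e-07). Hif3a, a subunit that can act as an inhibitor, fell from 6.93 ± 3.87 CPM to 1.36 ± 0.188 at 8 d (log2 change -2.34, SE 0.40). At 11 d and 14 d its libraries overlapped the unirradiated ones, and its call there was lost in 2 and 4 of 12 fits that each left out 1 library. Egln1, the prolyl hydroxylase that marks HIF-1α for breakdown, fell at 11 d and 14 d, with log2 changes of -0.45 and -0.43 (SE 0.11 each). Vhl, the ubiquitin ligase subunit that reads that mark, rose at 14 d by 0.64 (SE 0.16). At 11 d its change of 0.43 stood at an adjusted p = 0.05 and was lost in 8 of 12 fits without 1 library. Arnt2, a partner subunit, rose at 11 d and 14 d from a level under 1 CPM, 0.773 ± 0.212, to 1.7 ± 0.393 and 2.05 ± 0.772, while Arnt, the main partner, fell at 11 d (log2 change -0.38, SE 0.12).

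Markers of blood vessel endothelium, where Epas1 is abundant, moved in the same direction as Epas1. Of 10 such markers 5 fell at 8 d, 9 at 11 d and 10 at 14 d, against 10.6%, 17.8% and 18.9% of all genes tested. The summed level of the markers was 5271 to 5811 CPM without irradiation, then 3187 to 3282, 2037 to 2843 and 1290 to 1568, with none of the 10 at 0 in any library. Their part in the fall of Epas1 was not tested.

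Slc2a1, GLUT1 (chromosome 4, 119108711 to 119137983, plus strand), had 12.7, 13.6 and 13.8 CPM without irradiation, 20.8, 18.4 and 15.9 at 8 d, 26.2, 21.5 and 21.8 at 11 d and 23.6, 20.8 and 19.7 at 14 d. All irradiated libraries lay above the 3 unirradiated ones, although 8 d replicate 3 was close to them. The log2 changes were 0.46 at 8 d (SE 0.14, adjusted p = 0.029), 0.79 at 11 d (SE 0.14, adjusted p = 0.00054) and 0.68 at 14 d (SE 0.14, adjusted p = 0.0014). The 8 d call was lost in 5 of 12 fits without 1 library, namely without any 1 of the unirradiated libraries or without 8 d replicate 1 or 2, with an adjusted p between 0.055 and 0.11. A fit of only the 2 groups gave an adjusted p = 0.056.

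Other sugar and lactate carriers rose alongside Slc2a1 in part. Of the 10 others 4 rose at each time, Slc2a6, Slc2a9, Slc5a1 and Slc16a3, and 1, Slc16a1, fell at 14 d. Among all genes tested, 13%, 19.4% and 20% were called higher at the 3 times, and 18.9% lower at 14 d. Slc2a6, a glucose transporter of lysosomes in macrophages, rose from 1.64 ± 0.677 CPM to 6.92 ± 1.53, 8.58 ± 2.71 and 6.8 ± 1.21, with log2 changes of 2.07 (SE 0.30), 2.38 (SE 0.30) and 2.04 (SE 0.30). Slc2a9, a urate and hexose transporter, peaked at 8 d, with 7.33 ± 1.57 CPM without irradiation and then 23.6 ± 0.941, 14.7 ± 4.18 and 12 ± 1.87. It was lower at 14 d than at 8 d (log2 difference -0.97, SE 0.20, adjusted p = 0.0046), and its 14 d call against unirradiated lung was lost in 3 of 12 fits without 1 library. Slc16a3, the lactate exporter MCT4, rose from 3.92 ± 1.03 to 9.2 ± 1.79 CPM at 11 d and 9.19 ± 2.45 at 14 d (log2 changes 1.23 and 1.22, SE 0.26 each), and its 8 d change of 0.81 lost its call in 5 of 12 fits without 1 library. Slc16a1, the lactate carrier MCT1, fell at 14 d from 50.3 ± 7.41 to 33.4 ± 3.35 CPM (log2 change -0.59, SE 0.15). Slc5a1, a sodium-coupled glucose transporter, rose by 0.93 (SE 0.19) at 8 d and 1.07 (SE 0.19) at 11 d, and its 14 d change of 0.52 lost its call in 7 of 12 fits without 1 library. Slc2a3, the transporter GLUT3, did not pass the test at any time, with values between 4.41 ± 0.234 and 5.52 ± 0.696 CPM.

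Hk3 (chromosome 13, 55005985 to 55021385, minus strand) changed most of the 10 genes. Its levels were 3.05, 1.92 and 2.93 CPM without irradiation and 13.7, 8.87 and 6.63 at 8 d. At 11 d they were 47.7, 27.7 and 26.9 CPM, and at 14 d 34.8, 34.7 and 32.5. The unirradiated, 8 d and 11 d groups did not overlap, and the 14 d libraries lay within the range of the 11 d ones. The unirradiated libraries together held 214 counts of Hk3, and those of 14 d 2474. The log2 change was 1.88 at 8 d (SE 0.29, adjusted p = 0.00038), a 3.69-fold higher level. It was 3.69 at 11 d (SE 0.30, adjusted p = 1.2e-06) and 3.69 at 14 d (SE 0.30, adjusted p = 5.9e-07), each 12.9-fold.

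The other hexokinases moved less. Hk2 (chromosome 6, 82725025 to 82774454, minus strand), the inducible form, had 22, 18.2 and 18.1 CPM without irradiation, 23, 14.4 and 15.5 at 8 d, 30.5, 30.7 and 22.6 at 11 d and 35.2, 35.8 and 25 at 14 d. The 8 d libraries spanned the unirradiated ones, and all libraries of 11 d and 14 d lay above them. Its log2 changes were -0.14 at 8 d (SE 0.20), 0.52 at 11 d (SE 0.20, adjusted p = 0.052) and 0.72 at 14 d (SE 0.20, adjusted p = 0.01), and only the last was called. Median-of-ratios scaling, DESeq2 and a fit of the 2 groups alone called Hk2 at 11 d too, with adjusted p between 0.016 and 0.05. Hk1 (chromosome 10, 62268855 to 62379908, minus strand), the form found in most tissues, had 62.8, 62.3 and 69 CPM without irradiation. It had 103, 60 and 83 at 8 d, 72.9, 76.6 and 84.6 at 11 d and 80.5, 75.2 and 54.3 at 14 d. The wide 8 d and 14 d groups overlapped the controls, and a joint test over the 4 groups did not call Hk1 (adjusted p = 0.38), although it called the other 9 genes against 39.2% of all genes. The 95% intervals of the log2 change of Hk1 were, in the order of time, -0.05 to 0.73, -0.12 to 0.66 and -0.28 to 0.50. A fit of the 2 groups alone called it at 11 d (log2 change 0.28), as did a fit without 8 d replicate 2 at 8 d (log2 change 0.52, adjusted p = 0.035).

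The make-up of the hexokinase transcripts, taken from the same counts as the gene tests above, shifted accordingly. In counts per kilobase of exon, Hk3 made up 6.99%, 4.79% and 6.67% of the 3 hexokinases without irradiation and 19%, 20.3% and 12.7% at 8 d. It made up 48.7%, 34.8% and 34.7% at 11 d and 38.1%, 38.9% and 45.6% at 14 d. The mean was 6.15% ± 1.18 (SD, n = 3) against 32.5% ± 12.4 in the 9 irradiated libraries, a difference of 26.4 percentage points (exact permutation test, two-sided, p = 0.00909, adjusted p = 0.0182 over 4 shares). Merged exons span 3.682 kb for Hk3, 8.532 for Hk1 and 5.969 for Hk2, so scaling by length raises the share of Hk3. From counts not scaled by length the difference was 16.4 points, with the same adjusted p. This is the smallest p that 3 against 9 libraries allow, and 3 against 3 libraries at a single time cannot go below 0.1. Without any 1 of the unirradiated libraries, which leaves 2 against 9, the adjusted p was 0.0727.

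**Figure D2:**
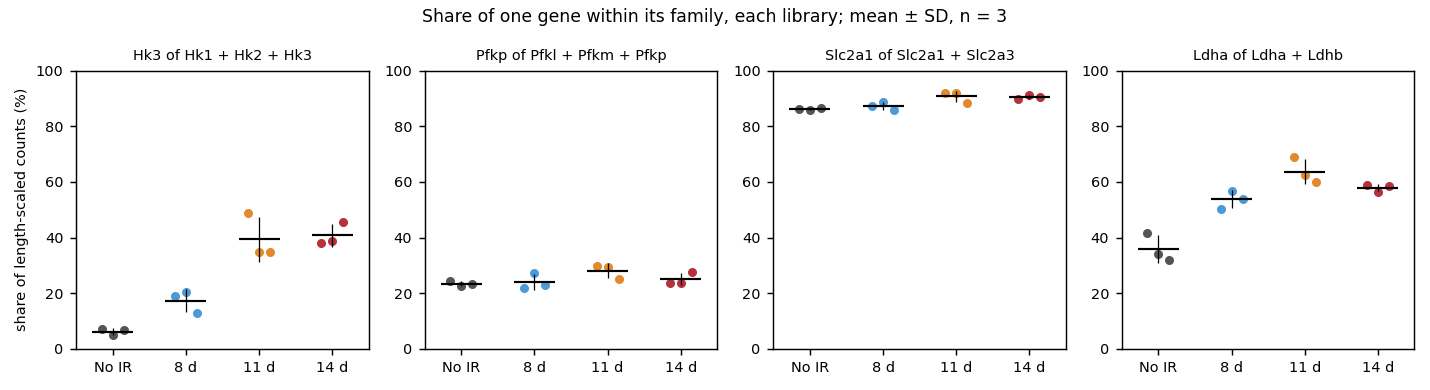
Share in percent (y axis, 0 to 100) of Hk3 among the hexokinases Hk1 to Hk3, Pfkp among the phosphofructokinases, Slc2a1 among Slc2a1 and Slc2a3, and Ldha among Ldha and Ldhb, from counts per kilobase of exon in each library (points), with mean and SD over 3 libraries per group. The shares of Hk3 and Ldha are higher in all 9 irradiated libraries than in the 3 unirradiated ones, and those of Pfkp overlap.

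Markers of monocytes and macrophages rose over the same times as Hk3, neutrophil markers rose less at 14 d, and alveolar macrophage markers mostly fell. Of 10 markers of monocytes and macrophages 6 rose at 8 d, 9 at 11 d and 10 at 14 d, with median log2 changes of 0.93, 2.07 and 2.56, and none was at 0 in any library. Their sum, mostly Lyz2, was 7745 to 8574 CPM without irradiation and lower at 8 d, 6445 to 7519, then 9554 to 14609 at 11 d and 18078 to 23205 at 14 d. Without Lyz2 the sum was 261 to 264 CPM without irradiation, then 457 to 642, 927 to 1667 and 1462 to 1680. Of 10 neutrophil markers 9 were counted and 6 tested, of which 3, 3 and 2 rose at 8 d, 11 d and 14 d. The median log2 changes of these 6 were 1.27, 1.14 and 0.16. The 9 counted markers summed to 34.1 to 84.7 CPM without irradiation, then 78.4 to 240, 101 to 162 and 87.5 to 108. Mpo, Camp or Ngp was at 0 in 9 of the 12 libraries. Markers of alveolar macrophages moved oppositely, with 6, 5 and 5 of 8 lower and 1, 1 and 0 higher by edgeR. Mitosis genes rose in 4, 6 and 6 of 6. Over all genes tested, 13%, 19.4% and 20% were called higher at the 3 times, and 10.6%, 17.8% and 18.9% lower. The part of these cell types in the changes of Hk3, Hif1a and the other genes was not tested.

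**Figure D3:**
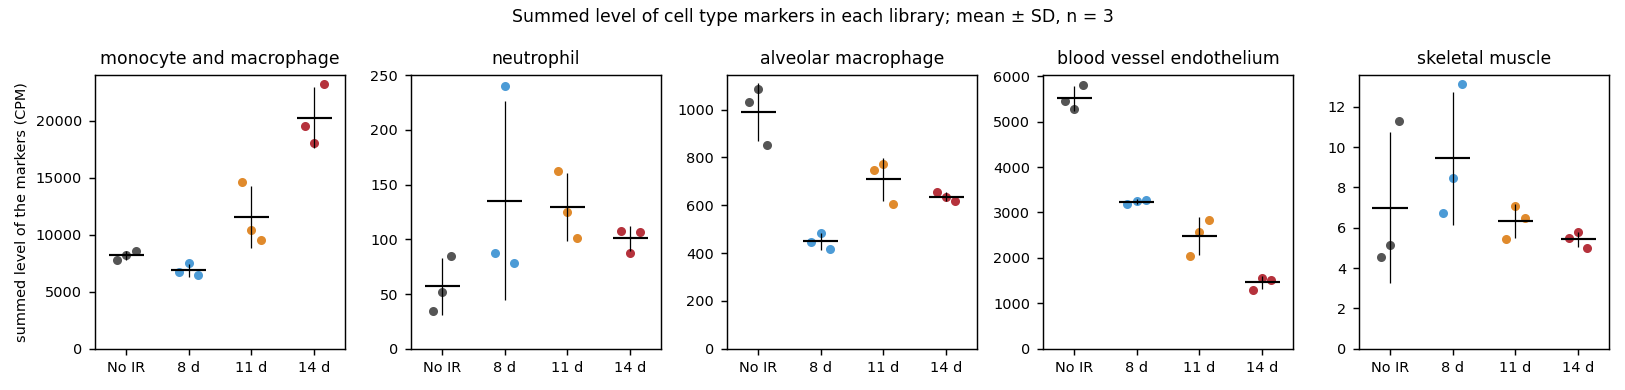
Summed level in CPM (y axis, linear, from 0, own scale per panel) of 5 marker lists in each library (points), with mean and SD over 3 libraries per group. The endothelial sum falls from 5271 to 5811 CPM without irradiation to 1290 to 1568 CPM at 14 d, and the monocyte and macrophage sum, led by Lyz2, rises at 11 d and 14 d.

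The most alike profiles were found by Pearson's r of log2 CPM over the 12 libraries among 11452 tested genes whose mean reached 5 CPM. Symbols of unnamed loci and of immunoglobulin and T cell receptor segments were left out of this pool. These libraries share their grouping, so a high r describes a like order of groups and has no test. For Hk3 the closest genes were Efhd2 (r = 0.993), the integrin gene Itgam (0.992), which is itself one of the monocyte and macrophage markers above, and Vav1 (0.991), a signalling gene of blood cells. For Hif1a they were the leukocyte adaptor Lcp2 (0.992), the kinase Jak2 (0.992) and Atp8b4 (0.990). The closest to Slc2a1 were the glycolytic genes Eno1b (0.994), Gapdh (0.983) and Eno1 (0.980). Eno1 has near-identical copies in the mouse genome, so Eno1b and Eno1 may share reads and are not taken as separate matches. Slc2a1 itself was among the 3 closest to Pkm (0.978), beside Surf4 (0.978) and Bak1 (0.973). Ldha was closest to Nans, Ly6i and the chemokine gene Ccl3 (0.979 each), and Pgk1 to Pnp (0.988), Esd (0.985) and Sin3b (0.967). Hk2 was closest to Abr (0.964), Trpc4ap (0.960) and Furin (0.950), and Pfkp to F10 (0.947), Mapkapk2 (0.936) and Slc7a8 (0.933). Pfkfb3 was closest to Pdlim5 (0.942), Chil3 (0.931), one of the alveolar macrophage markers, and Slc9a4 (0.913).

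Pfkfb3 (chromosome 2, 11471433 to 11554077, minus strand) was the gene that fell. Its levels were 167, 127 and 123 CPM without irradiation, 71.6, 72 and 79.7 at 8 d, 101, 112 and 91.4 at 11 d and 98.1, 91.9 and 86.5 at 14 d. All 9 irradiated libraries lay below the unirradiated ones, of which replicate 1 was the highest. The log2 change was -0.90 at 8 d (SE 0.14, adjusted p = 0.0003), which is 0.536 times the unirradiated level. It was -0.45 at 11 d (SE 0.13, adjusted p = 0.017) and -0.59 at 14 d (SE 0.13, adjusted p = 0.0028). At 11 d the call was lost without unirradiated replicate 1 (log2 change -0.30, adjusted p = 0.1), without 11 d replicate 1 (-0.45, adjusted p = 0.051) and without 11 d replicate 3 (-0.38, adjusted p = 0.074). Its paralogs Pfkfb1, Pfkfb2 and Pfkfb4 and the phosphatase Tigar, which acts against it, did not pass the test at any of the 3 times. Pfkfb2, the next most abundant, had 95.8 ± 13.5 CPM without irradiation and 81.3 ± 6.61, 86.2 ± 7.53 and 87.4 ± 14.5 after it.

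Pfkp (chromosome 13, 6579768 to 6648777, minus strand) had 66.8, 64.5 and 63.7 CPM without irradiation, 75.3, 70.1 and 60.3 at 8 d, 100, 91.8 and 77.4 at 11 d and 84.7, 79.8 and 75 at 14 d. The 8 d libraries spanned the unirradiated ones, and those of 11 d and 14 d lay above them. By edgeR it was called at 11 d alone (log2 change 0.47, SE 0.12, adjusted p = 0.0092), and this call was lost without 11 d replicate 1 (0.38, adjusted p = 0.051). The 14 d change was 0.30 (SE 0.12, adjusted p = 0.073), and DESeq2 called it (0.30, adjusted p = 0.048). Among the other subunits, Pfkl, the liver type, rose at 11 d and 14 d from 55.6 ± 2.85 to 78.3 ± 3.72 and 89 ± 18.4 CPM. Pfkm, the muscle type, fell at those times from 25.3 ± 1.15 to 18 ± 1.63 and 15.6 ± 1.7 CPM (log2 changes -0.49 and -0.69, SE 0.13 each). The share of Pfkp among the 3 subunits was 23.4% ± 1 without irradiation (SD, n = 3) and 25.8% ± 2.9 in the 9 irradiated libraries (exact permutation test, two-sided, p = 0.236, adjusted p = 0.236). From counts not scaled by length the difference was 1.05 points in place of 2.35. Merged exons of Pfkp span 13.4 kb, longer than a mature transcript, which lowers its level per kilobase and this share. Exons of Pitrm1 on the other strand cover 5.58% of them.

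Pgk1 (chromosome X, 106187100 to 106203699, plus strand) had 78.1, 97.3 and 83.3 CPM without irradiation, 107, 123 and 104 at 8 d, 181, 148 and 149 at 11 d and 128, 112 and 140 at 14 d. Every irradiated library lay above the unirradiated ones, and the 3 libraries of 11 d above all others. The log2 changes were 0.37 at 8 d (SE 0.14, adjusted p = 0.063), 0.89 at 11 d (SE 0.14, adjusted p = 0.00017) and 0.55 at 14 d (SE 0.14, adjusted p = 0.0047). At 8 d DESeq2 (adjusted p = 0.047) and scaling by library size alone (adjusted p = 0.026) called it.

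Pkm (chromosome 9, 59656368 to 59679375, plus strand) had 259, 284 and 286 CPM without irradiation, 577, 412 and 359 at 8 d, 650, 531 and 578 at 11 d and 556, 463 and 431 at 14 d. No irradiated library overlapped the unirradiated ones, and the 3 irradiated groups overlapped one another. Its log2 changes were 0.70 (SE 0.17, adjusted p = 0.0084), 1.09 (SE 0.17, adjusted p = 0.00022) and 0.81 (SE 0.17, adjusted p = 0.0017). Counts per gene do not separate its splice forms M1 and M2.

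Ldha (chromosome 7, 46841475 to 46855627, plus strand) had 187, 208 and 185 CPM without irradiation, 281, 308 and 274 at 8 d, 381, 336 and 345 at 11 d and 298, 282 and 295 at 14 d. The irradiated libraries all lay above the unirradiated ones, and those of 11 d above the other irradiated ones. The log2 change was 0.57 at 8 d (SE 0.11, adjusted p = 0.0019), 0.87 at 11 d (SE 0.11, adjusted p = 3.8e-05) and 0.60 at 14 d (SE 0.11, adjusted p = 0.00065). Ldhb, whose subunit favours the return of lactate to pyruvate, fell from 168 ± 37.4 CPM to 118 ± 11.7, 95.8 ± 13.6 and 100 ± 2.67 (log2 changes -0.51, -0.81 and -0.74, SE 0.16 each). By counts per kilobase Ldha made up 41.6%, 34% and 31.9% of the pair without irradiation and 50.4%, 56.8% and 53.9% at 8 d. It made up 68.8%, 62.4% and 60% at 11 d and 59%, 56.4% and 58.5% at 14 d. The mean of 35.8% ± 5.11 (SD, n = 3) stood against 58.4% ± 5.22 in the 9 irradiated libraries, 22.6 percentage points higher (exact permutation test, two-sided, p = 0.00909, adjusted p = 0.0182). Merged exons span 3.31 kb for Ldha and 1.57 kb for Ldhb, so scaling by length lowers the share of Ldha. In CPM the unirradiated means were 193 ± 12.6 for Ldha and 168 ± 37.4 for Ldhb. Without scaling by length the difference in the share of Ldha was 20.8 points. The share of Slc2a1 in the sum of Slc2a1 and Slc2a3 was 86.2% ± 0.413 against 89.5% ± 2.09 (exact permutation test, two-sided, p = 0.0273, adjusted p = 0.0364). From counts not scaled by length the difference was 5.32 points in place of 3.25, with the same adjusted p. Without any 1 of the unirradiated libraries the adjusted p was 0.0727 for the share of Ldha and 0.097 to 0.145 for that of Slc2a1. Other genes of M21 match at least 50% of the coding sequence of Ldha (10 genes), Pkm (5) and Pgk1 (2) at 90% identity or more, so the counts of these 3 genes are uncertain to the extent that such copies took or gave reads.

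**Figure D4:**
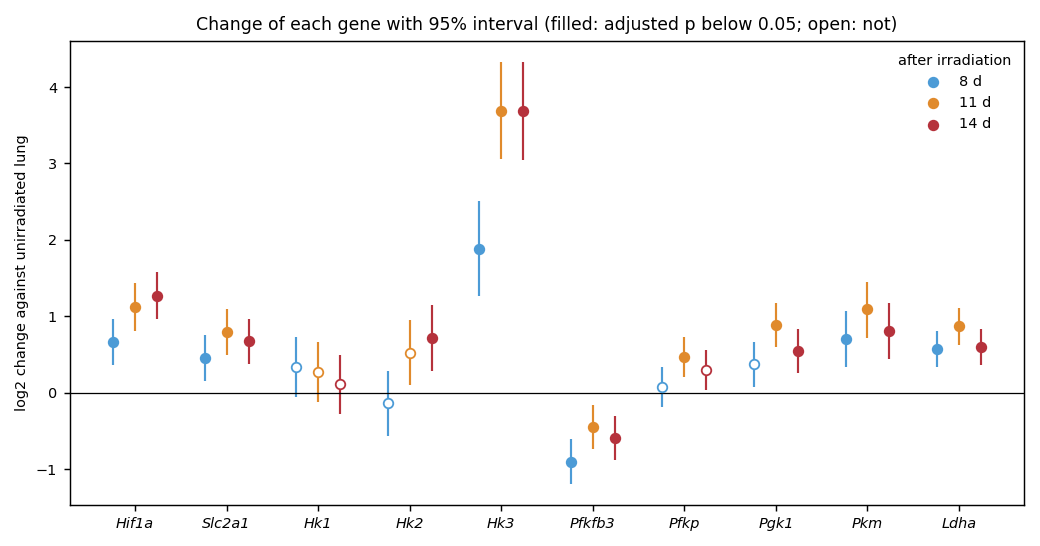
Log2 change against unirradiated lung (y axis) with its 95% interval for each gene (x axis) at 8 d, 11 d and 14 d, filled where the adjusted p was below 0.05. Hk3 stands at 1.88, 3.69 and 3.69, Pfkfb3 below 0 at all 3 times, and the intervals of Hk1 include 0.

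Ranked by level per kilobase of merged exon, Ldha (58.4 ± 3.8 CPM per kb) and Pkm (55.2 ± 3) came first in unirradiated lung, with overlapping libraries. Pgk1 (38.4 ± 4.42) followed, then Hif1a (18.7 ± 2.58) and Pfkfb3 (18.4 ± 3.21), which overlapped, Hk1 (7.58 ± 0.44) and Pfkp (4.85 ± 0.118). Slc2a1 (3.81 ± 0.179) and Hk2 (3.25 ± 0.369) overlapped, and Hk3 (0.715 ± 0.169) was lowest. At 14 d Pkm (96.6 ± 13), Ldha (88.2 ± 2.51), Pgk1 (56.4 ± 6.42) and Hif1a (45.3 ± 3.36) led, and Pkm and Ldha overlapped. Below Pfkfb3 (12.2 ± 0.768), Hk3 had moved to the sixth place with 9.24 ± 0.355, and it and each gene below it overlapped with the next, from Hk1 (8.2 ± 1.63) over Slc2a1 (6.09 ± 0.58) and Pfkp (5.96 ± 0.36) to Hk2 (5.36 ± 1.02). At 8 d Hk3 was still last (2.65 ± 0.986) and overlapped Hk2 (2.95 ± 0.786), and at 11 d it was sixth (9.26 ± 3.21) and overlapped Hk1 (9.15 ± 0.701). These places depend on the length of the merged exons, 3.682 kb for Hk3, 8.532 for Hk1 and 13.4 for Pfkp. In CPM at 14 d, Hk3 (34 ± 1.31) stood below Hk1 (70 ± 13.9) and Pfkp (79.9 ± 4.82). Its mean was above those of Hk2 (32 ± 6.06) and Slc2a1 (21.4 ± 2.03). Hif1a and Pfkfb3, level in unirradiated lung, stood at 29.7 ± 0.32 and 9.85 ± 0.601 CPM per kb at 8 d.

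The remaining glycolytic enzymes rose in part. Of 16 others 15 were tested, of which 5 rose and 1 fell at 8 d, and 7 rose and 2 fell at 11 d and again at 14 d, with medians of 0.38, 0.49 and 0.54. Among all genes tested, 13%, 19.4% and 20% were called higher at the 3 times, and 10.6%, 17.8% and 18.9% lower. Gapdh went from 413 ± 44.6 CPM to 658 ± 93, 931 ± 102 and 814 ± 48.8, a log2 change of 1.17 at 11 d (SE 0.15, adjusted p = 3.1e-05). Pgam1, a phosphoglycerate mutase, rose from 51.9 ± 2.12 to 123 ± 27.8 and 120 ± 3.9 CPM at 11 d and 14 d (log2 changes 1.25 and 1.21, SE 0.15 each). Eno1, an enolase, rose from 8.02 ± 1.05 to 22.5 ± 4.46 CPM at 11 d (log2 change 1.49, SE 0.23), and its 8 d call was lost in 2 of 12 fits without 1 library. Gapdh, Pgam1 and Eno1 have near-identical copies in the mouse genome, so their counts are uncertain. Pgam2, the muscle mutase, rose from 0.822 ± 0.165 to 3.11 ± 0.183 CPM at 8 d (log2 change 1.91, SE 0.27), and 2 of 6 skeletal muscle markers rose at 8 d, with a median log2 change of 0.55 over the 6. The 6 markers summed to 4.56 to 11.3 CPM without irradiation and 6.75 to 13.1 at 8 d, and without Tnnt3, the most abundant, to 3.05 to 3.98 and 4.54 to 6.4 CPM. Their part in the rise of Pgam2 was not tested. Aldoa, the main aldolase, did not pass the test, with 436 ± 38.1 CPM without irradiation and 454 ± 69.5, 558 ± 57.4 and 525 ± 47.3 after it. The 2 genes that fell were Pfkm and Ldhb, and only Ldhb at 8 d.

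Most regulators of glycolysis and of the entry of pyruvate into mitochondria did not pass the test. Of 15 regulators and carriers other than Pfkfb3, 4 fell at 8 d, 3 fell and 1 rose at 11 d, and 3 fell at 14 d, where 10.6%, 17.8% and 18.9% of all genes tested were called lower. At 11 d 19.4% of all genes were called higher. The medians of the list were -0.15, -0.12 and 0.02. Pdk1, a pyruvate dehydrogenase kinase and a known HIF target, fell from 28 ± 1.45 CPM to 19.5 ± 2.64, 21.7 ± 1.49 and 20.7 ± 0.345 (log2 changes -0.52, -0.37 and -0.44, SE 0.13 each). The calls at 11 d and 14 d were lost in 5 and 1 of 12 fits without 1 library. Pdk2, a further kinase of this family, fell from 29.7 ± 1.73 CPM to 13.7 ± 2.86 at 11 d (log2 change -1.12, SE 0.19, adjusted p = 0.00042) and 15.7 ± 3.09 at 14 d, and its 8 d call was lost in 7 of 12 such fits. Pdp2, a phosphatase with the opposite action, fell as well, from 8.07 ± 0.6 to 5.24 ± 0.773, 5.87 ± 0.106 and 5.71 ± 0.206 CPM, and its calls at 11 d and 14 d were lost in 5 and 2 of those fits. Pdk3 rose at 11 d by 0.34 (SE 0.11). Pdk4 was called lower at 8 d, which was lost in 8 of the 12 fits, and was higher at 14 d than at 8 d by 0.76 (SE 0.18, adjusted p = 0.013).

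Known HIF targets outside glycolysis went both ways. Of 23 such genes 6 rose and 8 fell at 8 d, 5 rose and 6 fell at 11 d, and 4 rose and 4 fell at 14 d, with medians of -0.17, 0.03 and -0.15. Over all genes tested, 13%, 19.4% and 20% were called higher at the 3 times, and 10.6%, 17.8% and 18.9% lower. Hmox1, haem oxygenase, which also answers to other stress pathways, rose from 34.7 ± 4.35 CPM to 76.6 ± 9.48, 178 ± 34.4 and 126 ± 10. Its log2 change at 11 d was 2.36 (SE 0.16, adjusted p = 3.3e-07). Lox, which crosslinks collagen, rose from 22.7 ± 0.592 to 72 ± 4.82 CPM at 14 d (log2 change 1.67, SE 0.18). Ankrd37 rose from 3.13 ± 0.672 to 10.6 ± 1.95 at 11 d and 12.2 ± 4.18 CPM at 14 d (log2 changes 1.76 and 1.97, SE 0.26 each), but genes on the other strand cover 26.4% of its exons, and its 8 d call was lost in 5 of 12 fits without 1 library. Adm, adrenomedullin, rose at all 3 times, with a log2 change of 1.59 (SE 0.35) at 8 d. Vegfa, the vascular growth factor, fell from 919 ± 114 CPM to 509 ± 66.1, 424 ± 90.4 and 297 ± 58.6, a log2 change of -1.63 at 14 d (SE 0.19, adjusted p = 9.1e-06). Bnip3, which acts in mitophagy, and Kdm3a, a histone demethylase, fell at all 3 times, with log2 changes of -0.77 (SE 0.13) and -0.76 (SE 0.14) at 8 d. Exons of a gene on the other strand cover 22.3% of those of Bnip3. Alveolar type 1 cells are a main source of Vegfa in mouse lung. Markers of these cells fell in 3, 4 and 5 of 6 and rose in 1 at 11 d, and their sum was 5301 to 5956 CPM without irradiation and 2334 to 2813 CPM at 14 d. Their part in the fall of Vegfa was not tested.

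**Figure D5:**
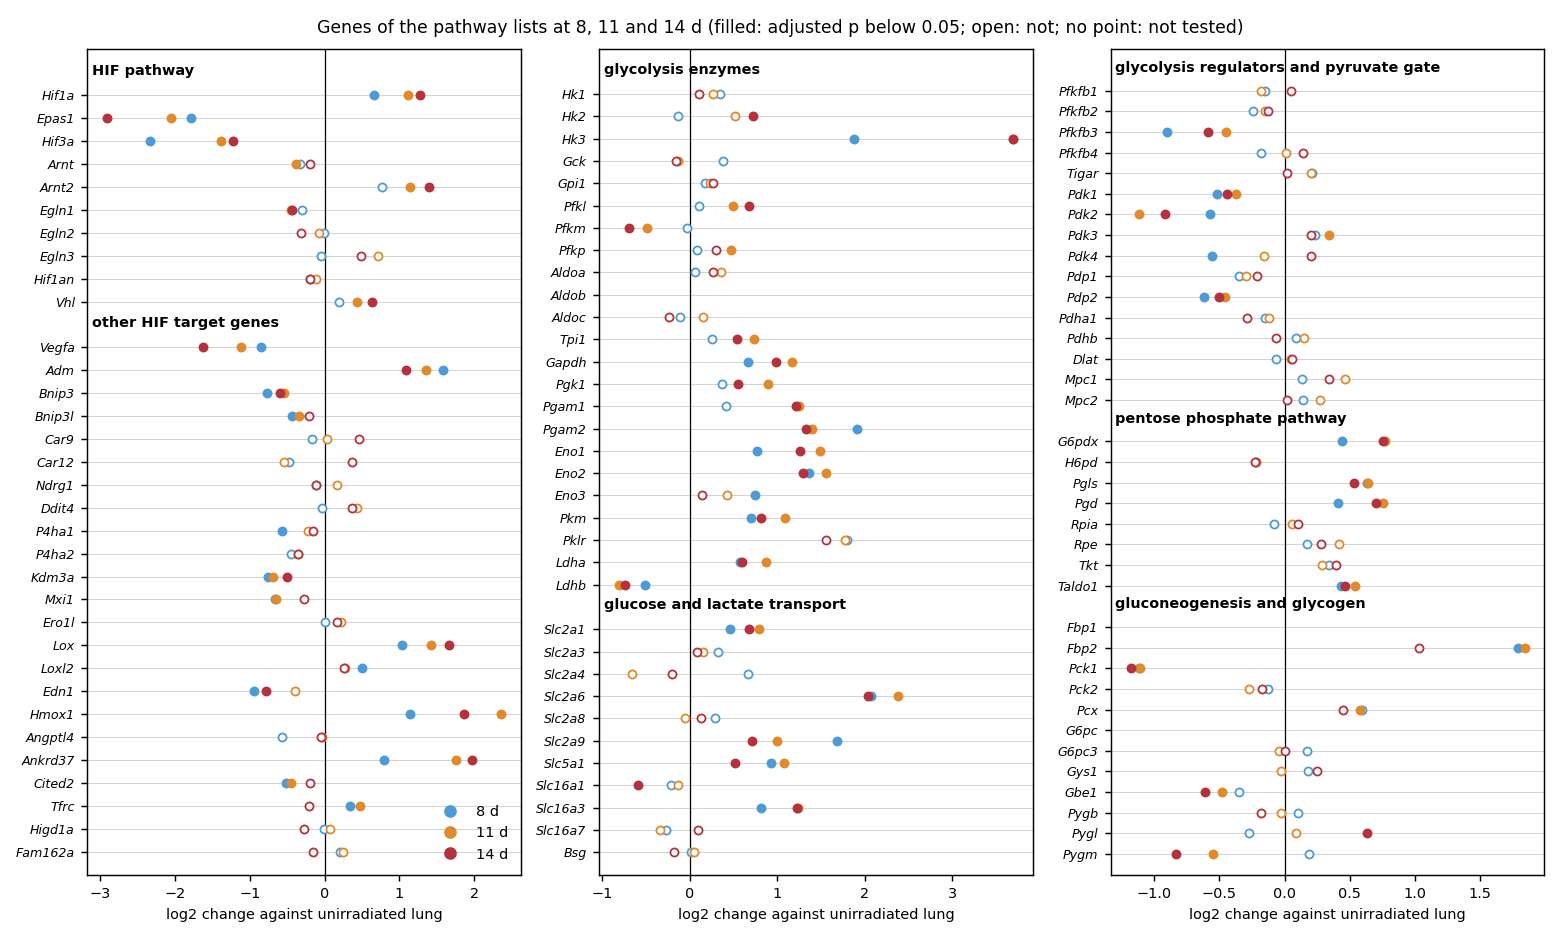
Log2 change against unirradiated lung (x axis, own scale per column) for each gene of 7 lists at 8 d, 11 d and 14 d, the 10 genes included, filled where the adjusted p was below 0.05. Epas1 and Vegfa lie left of 0 at all 3 times, and Hmox1 and Lox right of it.

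Of 8 genes of the pentose phosphate pathway, which takes glucose 6-phosphate to NADPH and ribose, 4 rose at each time, G6pdx, Pgd, Pgls and Taldo1, with list medians of 0.37, 0.48 and 0.42. Among all genes tested the shares called higher were 13%, 19.4% and 20%, and the shares called lower 10.6%, 17.8% and 18.9%. G6pdx, the entry enzyme, went from 60.1 ± 6.14 to 102 ± 13.6 CPM at 11 d and 101 ± 7.15 at 14 d (log2 changes 0.77 and 0.75, SE 0.14 each). Pgd, which yields the second NADPH, went from 85.6 ± 4.1 to 144 ± 5.72 and 139 ± 15.3 CPM (0.75 and 0.70, SE 0.13 each). At 8 d the calls of G6pdx, Pgd, Pgls and Taldo1 were lost in 7, 5, 3 and 3 of 12 fits without 1 library. The calls of Pgls at 11 d and 14 d were lost in 1 and 4 of those fits, and its 14 d libraries overlapped the unirradiated ones. Of 12 genes of glucose synthesis and glycogen 10 were tested, of which 1 rose and 1 fell at 8 d, 2 rose and 3 fell at 11 d, and 1 rose and 3 fell at 14 d. The medians were 0.14, -0.04 and -0.09. Pck1, which commits carbon to glucose synthesis, fell from 8.11 ± 2.75 to 3.74 ± 0.674, 3.76 ± 0.481 and 3.58 ± 0.432 CPM (log2 change -1.12 at 8 d, SE 0.24). The glycogen phosphorylases parted, with Pygl, the liver form, higher at 14 d (log2 change 0.63, SE 0.16) and Pygm, the muscle form, lower (-0.83, SE 0.19). Fbp2, a fructose bisphosphatase, rose at 8 d and 11 d from under 1 CPM, 0.355 ± 0.132, to 1.25 ± 0.507 and 1.3 ± 0.297.

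Between the irradiated times the 10 genes differed less. From 8 d to 11 d Hk3 alone was called, higher by 1.81 (SE 0.27, adjusted p = 0.01), where 1.75% of all genes were called higher and 0.394% lower. This call was lost without 8 d replicate 3 (1.59, adjusted p = 0.087). The libraries of 7 of the 10 genes did not overlap between 8 d and 11 d, all higher at 11 d, against 18.3% of all genes in either direction. DESeq2 called 6 of the 10 higher, and of all 16484 genes tested 607 higher and 261 lower. With limma-voom 1 of the 10 was called higher, and 277 of all genes higher and 63 lower. From 8 d to 14 d 3 genes were called higher, against 8.1% of all genes, with 7.29% called lower. They were Hk3 by 1.81 (SE 0.27, adjusted p = 0.00054), Hk2 by 0.86 (SE 0.20, adjusted p = 0.0098) and Hif1a by 0.61 (SE 0.14, adjusted p = 0.011). Libraries of these 3 genes and of Pfkfb3 (0.31, SE 0.13, adjusted p = 0.15) did not overlap, all higher at 14 d, against 30% of all genes in either direction. The Hk2 call was lost without 8 d replicate 3 (adjusted p = 0.051), and the Hif1a call without 14 d replicate 1 (adjusted p = 0.057).

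From 11 d to 14 d none of the 10 was called by edgeR, DESeq2 or limma-voom, where edgeR called 0.813% of all genes higher and 0.983% lower. At an unadjusted p below 0.05, 2 were lower, Ldha (log2 difference -0.28, SE 0.11, adjusted p = 0.23) and Pgk1 (-0.33, SE 0.13, adjusted p = 0.23). These were also the 2 genes whose 14 d libraries all lay below those of 11 d, against 21.7% of all genes whose libraries did not overlap. For Hk3 the log2 difference was 0.00, with a 95% interval of -0.55 to 0.54. The median over the 10 genes was 0.42 for 11 d against 8 d and -0.15 for 14 d against 11 d.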

How the data were processed

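RNA sequencing counts of 12 mouse lung samples were analysed. Trizol-extracted RNA went into directional NEBNext Ultra II libraries, per the labels' protocols. The authors deposited raw counts per gene symbol, made after alignment to mm10 by TopHat, per the submitters' processing notes. For the counting program, annotation, strand setting and handling of multi-mapping reads, nothing is given in the sources used here. Symbols on several lines were summed (35 symbols). The 10 genes, the 7 pathway lists and the marker lists were chosen with earlier results of these data known. One gene of the list of other HIF targets and 1 promoter stretch are not reported here.

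All 12 samples were fitted with edgeR 4.0.16 in R 4.3.3 (quasi-likelihood test, TMM scaling, default expression filter, which removed 6754 genes). SE is |log2 change| over the root of F, and values after ± are SD. Shares were tested with exact permutation tests. They rest on the same counts as the gene tests and are not separate evidence. Coordinates, exon lengths and overlaps come from GENCODE M21, and promoter sequences from RefSeq (GRCm38.p6). Besides the 10 genes, the 4 genes of each list with the lowest p of the joint test, genes that went against their list, and the 3 most similar profiles of each called gene were named. Arnt, Arnt2, Slc2a3, Aldoa, Pfkl, Pdk3, Adm, Bnip3, Kdm3a, Pfkfb1, Pfkfb2, Pfkfb4 and Tigar were named after their values were seen. The alternatives tried were scaling by median of ratios or by library size, 2 other filters, DESeq2 1.42.0, limma-voom (limma 3.58.1), a fit of only 2 groups, a replicate block, removal of Rn45s and haemoglobin genes, and each library left out.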

Additional observations from a re-analysis of the deposited data

Results flagged for a closer look

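Changes against unirradiated lung differed between irradiated times for 3 of the 10 genes, by the direct test between those times (edgeR, adjusted over all genes tested). Of all genes tested, 1.75% were called higher and 0.394% lower at 11 d than at 8 d. At 14 d against 8 d the shares were 8.1% and 7.29%. Hk3 was higher at 11 d than at 8 d by 1.81 on the log2 scale, with all 3 libraries of 11 d above all 3 of 8 d. It was also higher at 14 d than at 8 d, by 1.81. Hk2 was higher at 14 d than at 8 d by 0.86, again without overlap of the libraries. Hif1a was higher at 14 d than at 8 d by 0.61, and its libraries did not overlap either. Libraries did not overlap for 18.3% of all genes between 8 d and 11 d, and for 30% between 8 d and 14 d. The call of Hk3 at 11 d against 8 d was lost without 8 d replicate 3 (edgeR, adjusted p = 0.087). So was that of Hk2 (adjusted p = 0.051), and that of Hif1a was lost without 14 d replicate 1 (adjusted p = 0.057).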

How the results depend on the processing

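With 3 libraries a group, a call near the threshold depends on single libraries. The number of the 10 genes higher at 11 d than at 8 d was 1, but 6 with DESeq2 and 2 with the replicate number as a block, and 0 to 2 when 1 library was left out. Of all 16484 genes tested, 288 were called higher by the main fit, 607 by DESeq2 and 320 with the block. The number lower at 11 d than in unirradiated lung was 1, and 0 to 1 when 1 library was left out. The other counts of the 10 genes stayed within 1.5 times under each alternative. Same-numbered libraries correlated between -0.35 and 0.29 in their deviations from the group means. With 3 libraries a group and no test, these values cannot decide whether the numbers pair samples, which the labels do not state. The replicate block added calls for Hk2 at 11 d and from 8 d to 11 d (adjusted p = 0.023 and 0.049) and for Pfkp at 14 d (adjusted p = 0.05) and removed none of the 10 genes' calls. Taking single times, which cannot reach a p below 0.1, the share differences at 8 d, 11 d and 14 d were 11.2, 33.2 and 34.7 points for Hk3, 17.9, 27.9 and 22.1 for Ldha, and 1.02, 4.46 and 4.26 for Slc2a1. Leaving out 1 library gave 24.4 to 28.9 points for Hk3, 20.7 to 25.5 for Ldha and 2.95 to 3.69 for Slc2a1. From counts not scaled by length the differences were 16.4 points for Hk3, 20.8 for Ldha, 5.32 for Slc2a1 and 1.05 for Pfkp. Signs turned for values near 0 that were not called. Hk3 from 11 d to 14 d was 0.00 with median-of-ratios scaling, no filter and DESeq2, 0.03 with library size alone, 0.04 with limma-voom and 0.06 with the block, and between -0.15 and 0.32 without 1 library. Ldha from 8 d to 14 d was -0.04 with library size alone. Leaving out 1 library gave -0.01 to 0.07 for Ldha and -0.03 to 0.33 for Pkm from 8 d to 14 d, -0.25 to 0.12 for Hk1 from 8 d to 11 d, and -0.06 to 0.21 for Pygl at 11 d. The cause was not tested. The scarcest of the 10 genes, Hk3 in unirradiated lung, rested on 214 counts over 3 libraries.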
